A study of Mus musculus with 36 samples.

Results

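The genes described here build and run the DNA replication fork and supply it with deoxynucleotides. The list holds 42 genes, chosen by name, and 39 of them have at least 1 probe on the array (65 probes). No probe was named for Gins1, Gins2 and Rfc3. After probes that were rarely above background were set aside, 33 of the 42 were tested, within 7585 tested genes in all. Illumina bead arrays measured the RNA of mouse T cells in 3 Malt1 genotypes, at rest (0 h) and after 1 and 4 h of stimulation. MALT1 passes the antigen receptor signal on as a scaffold and also cuts other proteins as a paracaspase. In PM cells (Malt1PM/-) the only Malt1 allele carries a paracaspase mutation, in KO cells (Malt1-/-) there is no intact allele, and in het cells (Malt1+/-) there is 1 wild-type allele. Each genotype was sampled at each time on 4 arrays, 36 in all. All groups therefore lack at least 1 Malt1 allele, including the het cells that serve as the comparison, and no group with both alleles intact was analysed here. The labels give every group the strain of the CMV-cre transgene, a Cre line active in most tissues, and give no age or sex of the animals. They describe negatively selected total T cells as well as purified CD4+ cells, and PMA with ionomycin as well as plate-bound antibodies to CD3 and CD28, without saying which applies to these arrays. The design text speaks of 3 biological replicates where the labels number 4, and neither says that these are separate animals, so the p-values measure only the spread between these samples.

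A cell loads replication origins with the MCM2 to MCM7 helicase while it is in G1, using the origin recognition complex, CDC6 and CDT1. The kinase CDC7 with its activator DBF4 then fires the origins, and CDC45 and the GINS complex activate the helicase. Polymerases alpha, delta and epsilon copy the strands, delta and epsilon with the PCNA clamp. Resting T cells are outside the cycle, and after antigen receptor stimulation they take many hours to reach S phase, while E2F factors and MYC are known to drive many of the genes of replication and nucleotide synthesis.

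Promoter sequence was available for 35 of the 42 genes, as the RefSeq stretch from 250 bases before to 50 bases after each start (assembly GRCm38.p6). The E2F core was searched on both strands as TTTCCCGC, TTTCGCGC, TTTGCCGC or TTTGGCGC, and it was present in 11 of the 35 genes (31.4%), against 704 of all 27025 genes (2.6%). A match is a run of letters and not a measured binding site. The 2 windows of 120 bases shown next belong to the helicase subunit genes that rose at 4 h in all 3 genotypes and hold a match, with the E2F core in capitals. In both, 2 matches on opposite strands overlap, and Mcm6 has another match nearer its start. The Mcm5 window lies at chr8:75109336-75109455 (plus strand) and the Mcm6 window at chr1:128359716-128359835 (minus strand).
Mcm5: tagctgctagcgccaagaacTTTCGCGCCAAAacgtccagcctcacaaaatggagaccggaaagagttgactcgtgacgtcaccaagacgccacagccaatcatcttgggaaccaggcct
Mcm6: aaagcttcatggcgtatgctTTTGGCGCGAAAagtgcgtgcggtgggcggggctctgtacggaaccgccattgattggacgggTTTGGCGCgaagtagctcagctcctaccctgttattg

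The CCAAT box (CCAAT, both strands) was present in 20 of the 35 genes (57.1%), against 41.1% of all genes. For the genes that rose already at 1 h, the 120 bases before the start are given next, with any CCAAT box in capitals. Mcm4, the remaining gene of that group, had no promoter entry in the table used. None of these 5 windows holds an E2F core, but they cover less than the stretch searched, and the match in Mcm5 lies further from its start than they reach. Over the whole stretch, 1 of these 5 genes (Cdt1, after its start) held a match, as did 2 of the 5 that rose at 4 h in all 3 genotypes. The windows are at chr5:8422717-8422836 (minus strand) for Dbf4, chr8:122567895-122568014 (plus strand) for Cdt1, chr2:132253181-132253300 (minus strand) for Pcna, chr8:85299512-85299631 (plus strand) for Orc6 and chr7:102441575-102441694 (plus strand) for Rrm1.
Dbf4: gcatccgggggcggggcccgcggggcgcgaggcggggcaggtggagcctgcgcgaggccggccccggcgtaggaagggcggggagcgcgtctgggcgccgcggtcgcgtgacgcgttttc
Cdt1: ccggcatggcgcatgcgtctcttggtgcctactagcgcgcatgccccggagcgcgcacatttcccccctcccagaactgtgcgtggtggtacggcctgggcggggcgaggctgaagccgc
Pcna: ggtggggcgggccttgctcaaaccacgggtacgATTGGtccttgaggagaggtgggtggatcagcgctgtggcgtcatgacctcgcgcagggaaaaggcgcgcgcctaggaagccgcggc
Orc6: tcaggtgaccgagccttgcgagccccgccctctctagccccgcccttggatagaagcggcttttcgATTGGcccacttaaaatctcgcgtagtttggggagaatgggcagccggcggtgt
Rrm1: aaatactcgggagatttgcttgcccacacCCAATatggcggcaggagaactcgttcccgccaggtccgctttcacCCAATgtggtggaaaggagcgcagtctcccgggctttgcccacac
These early genes and the search for the cyclic AMP response element (TGACGTCA, its own reverse complement) were chosen after the values were seen. That element occurred in Mcm5 and Orc5 (5.71% of the listed genes with a promoter entry, against 2.03% of all genes).

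Each array detected 7713 to 10291 of its 25697 probes. The precision is limited by the number of arrays. Values are log2 signals after background correction and quantile normalization, and a change is a difference of log2 means. Malt1 itself was higher in het cells than in both other genotypes. In PM cells its values were 4.88, 5.06, 5.17 and 5.74 at 0 h, 5.29, 5.30, 5.68 and 6.19 at 1 h, and 5.80, 6.10, 6.55 and 5.93 at 4 h. In KO cells they were 5.09, 4.84, 4.84 and 4.39 at 0 h, 4.74, 4.78, 4.71 and 4.42 at 1 h, and 5.49, 6.24, 5.70 and 5.84 at 4 h, and 2, 0 and 4 of the 4 arrays detected the probe. In het cells they were 5.79, 5.78, 6.48 and 6.27 at 0 h, 6.71, 6.20, 6.98 and 7.10 at 1 h, and 6.96, 7.56, 7.43 and 7.21 at 4 h. All het values lay above those of PM and KO at the same time, and PM and KO overlapped at 0 h and 4 h. Limma adjusted p-values against het were 0.191, 0.0184 and 0.00136 for PM at 0, 1 and 4 h, and 0.00725, 1.55e-06 and 3.55e-05 for KO, which at 1 h was at least 3.44-fold below het. The position of the probe in the gene was not matched to the deletion, and a probe outside the deletion checks nothing.

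After 1 h of stimulation, 6 replication genes rose in each genotype, and they were the same 6 genes: Dbf4, Cdt1, Pcna, Rrm1, Orc6 and Mcm4. A gene is called when its adjusted p from limma, over all 7585 genes, is under 0.05. In PM cells 6 of 33 members were higher and 1 was lower at 1 h, where 10.3% of all genes were higher and 13.1% lower. In KO cells 6 were higher and 5 lower, against 12.4% and 15.7% of all genes. In het cells 6 were higher and 4 lower, against 12.7% and 15.5% of all genes. The share of members that rose (18.2%) was thus above the share of all genes that rose in each genotype, while the median change of the members was -0.08 in PM, -0.18 in KO and -0.09 in het, beside -0.08, -0.07 and -0.07 over all genes. Whether the set as a whole differs from all genes was not tested. With arrays set to equal medians and no quantile step, Dbf4 was the only 1 of the 6 still called in PM. In KO and het, Dbf4 and Cdt1 were. The comparisons of the 3 genotypes use separate arrays but share 1 estimate of the spread, and same-numbered arrays of different genotypes varied together. For PM and het at 1 h, deviations of same-numbered arrays from their group means correlated at 0.513, 0.813, 0.372 and 0.564. The 3 genotypes are therefore not independent repeats. Between preparations of bulk RNA, fewer cells of a type and less RNA per cell cannot be told apart. The summed linear signal of 8 myeloid markers was lower in the same samples, with an overlap of the times in PM. It was 1300 to 2767 in PM, 1348 to 2791 in KO and 1783 to 2991 in het cells at 1 h, against 2298 to 4416, 3828 to 5587 and 4189 to 4786 at 0 h. Some single markers went the other way without a call, Cd14 in PM and KO (0.62 and 0.56) and Ctss in PM (0.08). Of the 8, 1, 3 and 2 were called lower, among them Cst3 in all 3 genotypes, while of 7 B cell markers 0 were called at an adjusted p under 0.05 by limma, with 0, 0 and 1 at an unadjusted p under 0.05. Their part in the changes at 1 h was not tested.

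Dbf4, the activating subunit of the CDC7 kinase, rose most. In PM cells Dbf4 read 7.09, 6.98, 7.37 and 7.65 at 0 h, 9.17, 8.31, 8.98 and 9.19 at 1 h, and 7.09, 7.45, 7.58 and 7.73 at 4 h. In KO cells Dbf4 read 7.28, 7.80, 7.38 and 7.78 at 0 h, 9.47, 8.55, 9.03 and 9.35 at 1 h, and 7.01, 7.16, 7.11 and 7.33 at 4 h. In het cells Dbf4 read 6.84, 7.11, 7.52 and 7.34 at 0 h, 9.14, 8.71, 8.98 and 9.19 at 1 h, and 7.11, 7.26, 7.27 and 7.07 at 4 h. Every 1 h array was above every 0 h and every 4 h array of its genotype, and the 0 h and 4 h arrays overlapped. The rise at 1 h was 3.11-fold in PM, 2.91-fold in KO and 3.49-fold in het cells (log2 1.64 in PM, 1.54 in KO and 1.80 in het cells, SE 0.20, limma adjusted p = 1.93e-07, 4.22e-07 and 2.23e-08). From 1 to 4 h it fell, with log2 changes of -1.45 in PM, -1.94 in KO and -1.83 in het cells. Dbf4 was called in all 3 genotypes at 1 h under each of the 9 alternative settings and each fit without 1 array.

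Cdt1, which loads the MCM helicase at origins, followed the same course. Its log2 signals in PM cells were 8.29, 8.37, 8.45 and 8.50 at 0 h, 9.33, 9.72, 9.85 and 9.87 at 1 h, and 8.48, 8.72, 8.46 and 8.55 at 4 h. For KO cells the Cdt1 signals were 8.39, 8.24, 8.65 and 8.46 at 0 h, 9.72, 9.81, 9.99 and 9.94 at 1 h, and 8.62, 8.54, 8.66 and 8.64 at 4 h. For het cells they were 8.07, 8.09, 8.45 and 8.29 at 0 h, 9.96, 9.51, 9.98 and 9.87 at 1 h, and 8.18, 8.21, 8.45 and 8.41 at 4 h. No 1 h array overlapped a 0 h or 4 h array in any genotype. Cdt1 rose at 1 h by 1.29 in PM, 1.43 in KO and 1.60 in het cells (log2, SE 0.12, limma adjusted p = 1.87e-09, 1.43e-10 and 1.03e-11), which is 2.44-fold, 2.7-fold and 3.03-fold. It was lower at 4 h than at 1 h by log2 changes of -1.14 in PM, -1.25 in KO and -1.52 in het cells. With arrays set to equal medians and no quantile step (median scaling), the rise in PM was 0.96 with an adjusted p of 0.0686, while those in KO and het were still called.

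**Figure D1:**
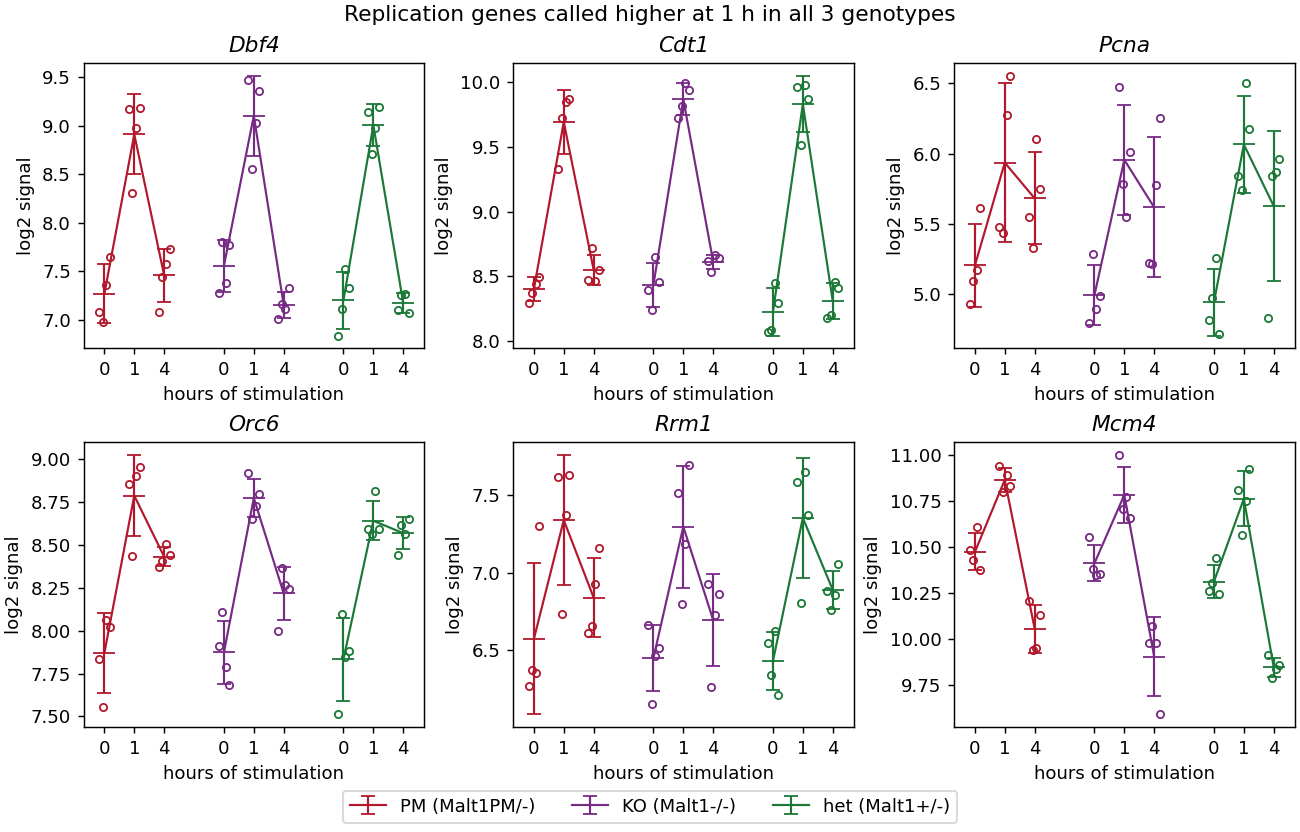
Log2 signal of the 6 replication genes called higher at 1 h, at 0, 1 and 4 h of stimulation in PM, KO and het cells; circles are single arrays, and horizontal ticks with bars are the mean and SD of 4 arrays. Dbf4 and Cdt1 rose at 1 h and were back near the 0 h level at 4 h, Mcm4 ended below its 0 h level, and Orc6 was still above it.

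Mcm4, a subunit of the MCM helicase, rose at 1 h and was below its resting level at 4 h. The course rests on the only Mcm4 probe above background, as its other probes were detected on 0 of 36 arrays. In PM cells Mcm4 read 10.48, 10.43, 10.61 and 10.38 at 0 h, 10.94, 10.80, 10.89 and 10.83 at 1 h, and 10.21, 9.94, 9.95 and 10.13 at 4 h. In KO cells Mcm4 read 10.56, 10.38, 10.35 and 10.36 at 0 h, 11.002, 10.71, 10.77 and 10.66 at 1 h, and 9.98, 10.07, 9.98 and 9.59 at 4 h. In het cells Mcm4 read 10.26, 10.31, 10.44 and 10.24 at 0 h, 10.81, 10.57, 10.75 and 10.93 at 1 h, and 9.91, 9.79, 9.84 and 9.86 at 4 h. The 3 times did not overlap within any genotype, with 1 h on top and 4 h at the bottom. The change at 1 h was 0.39 in PM, 0.37 in KO and 0.45 in het cells (log2, SE 0.11, limma adjusted p = 0.00655, 0.00789 and 0.00156), and at 4 h against 0 h it was -0.42 in PM, -0.51 in KO and -0.47 in het cells (adjusted p = 0.0014, 0.00019 and 0.000375).

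Orc6, a subunit of the origin recognition complex, rose at 1 h and stayed higher at 4 h. Its signals in PM cells were 7.84, 7.56, 8.06 and 8.02 at 0 h, 8.86, 8.44, 8.90 and 8.95 at 1 h, and 8.37, 8.41, 8.50 and 8.44 at 4 h. Those in KO cells were 7.91, 8.11, 7.79 and 7.68 at 0 h, 8.92, 8.65, 8.73 and 8.80 at 1 h, and 7.9995, 8.36, 8.27 and 8.24 at 4 h. Those in het cells were 7.51, 8.10, 7.84 and 7.88 at 0 h, 8.59, 8.57, 8.81 and 8.59 at 1 h, and 8.44, 8.62, 8.56 and 8.65 at 4 h. No stimulated array overlapped the resting arrays in PM and het, whereas 4 h and 0 h overlapped in KO. Orc6 rose at 1 h by 0.92 in PM, 0.90 in KO and 0.81 in het cells (log2, SE 0.13, limma adjusted p = 2.98e-06, 3.04e-06 and 1.55e-05). At 4 h it was above 0 h by 0.56 in PM, 0.34 in KO and 0.73 in het cells (adjusted p = 0.000533, 0.0304 and 1.43e-05). The KO call at 4 h was lost without any 1 of replicates 3 and 4 at 0 h or replicates 2, 3 and 4 at 4 h, with adjusted p-values of 0.059 to 0.109.

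Pcna, the sliding clamp, and Rrm1, the large subunit of ribonucleotide reductase, were the other risers at 1 h. In PM cells Pcna read 5.48, 5.44, 6.28 and 6.55 at 1 h, against 4.93, 5.09, 5.17 and 5.62 at 0 h. In KO cells Pcna read 6.47, 5.79, 5.55 and 6.01 at 1 h, against 4.79, 5.29, 4.90 and 4.99 at 0 h. In het cells Pcna read 5.84, 5.74, 6.50 and 6.18 at 1 h, against 4.82, 4.98, 5.26 and 4.72 at 0 h. The Pcna signals are low, with the probe detected on 4 of 4, 3 of 4 and 2 of 4 resting arrays in PM, KO and het, and the 1 h arrays overlapped the 0 h arrays in PM only. The Pcna change was 0.73 in PM, 0.96 in KO and 1.12 in het cells (log2, SE 0.27, limma adjusted p = 0.0453, 0.00664 and 0.00174). The PM call was lost in 5 of 8 fits that left out 1 array, namely replicate 1, 2 or 3 at 0 h and replicate 3 or 4 at 1 h (adjusted p of 0.0825 to 0.183).

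In PM cells Rrm1 read 7.61, 6.73, 7.37 and 7.63 at 1 h, against 6.27, 6.37, 6.35 and 7.30 at 0 h. In KO cells Rrm1 read 7.51, 6.80, 7.18 and 7.69 at 1 h, against 6.66, 6.15, 6.46 and 6.52 at 0 h. In het cells Rrm1 read 7.59, 6.80, 7.65 and 7.37 at 1 h, against 6.54, 6.34, 6.62 and 6.21 at 0 h. Only PM showed an overlap of the times, through 1 resting array at 7.30. Rrm1 rose by 0.77 in PM, 0.85 in KO and 0.92 in het cells (log2, SE 0.23, limma adjusted p = 0.0118, 0.00455 and 0.00208). Without replicate 1 at 1 h the PM rise was 0.67 with an adjusted p of 0.0502. Rrm2, the small subunit that limits the enzyme in cycling cells, was not above background on any of the 36 arrays with either of its probes. Under median scaling, Orc6, Mcm4, Pcna and Rrm1 were still above 0 h at 1 h in each genotype, by 0.14 to 0.89, and none of them was called. Mcm4, Dbf4, Cdt1 and Rrm1 were singled out after their values were seen.

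Among the falls at 1 h, Cdc7, the catalytic partner of DBF4, fell in all 3, while Orc5 and Rpa3 were called lower in KO and het, Rpa1 and Mcm6 in KO, and Gins4 in het. Several of these calls rested on 1 array. Orc5 was not called in KO without replicate 1 at 1 h (-0.58, adjusted p = 0.0687) or in het without replicate 1 at 1 h (-0.51, adjusted p = 0.0811), nor Mcm6 in KO without replicate 3 at 1 h (-0.43, adjusted p = 0.0519). The other probes of Mcm6 were not called in KO at 1 h (-0.13 and -0.57). Rpa1 in KO was lost without replicate 1 at 0 h or replicate 3 or 4 at 1 h (adjusted p of 0.0525 to 0.0742), and Rpa3 in het without replicate 2 at 0 h or replicate 1 at 1 h (adjusted p = 0.108 and 0.0853). In the comparisons in which the replicate numbers pair the arrays (as they do for 1 h against 0 h in each genotype), the fit with the replicate number as a block also called Orc5, Rpa1 and Rpa3 lower in PM (adjusted p = 0.0305, 0.0104 and 0.0483). In KO it also called Gins4, Pold1, Pold2, Rfc2 and Rpa2 lower, with adjusted p-values of 0.0105 to 0.0431, and in het Pold2 and Rpa1 (adjusted p = 0.00854 and 0.0109). No call was lost with the block. In either direction it called 10 members in PM, 16 in KO and 12 in het. Its shares of all genes were 32.2%, 38.2% and 37.6%, above those of the fit without the block. None of the 5 polymerase and primase genes tested was called at 1 h in the fit without the block, and their median changes were -0.26 in PM, -0.22 in KO and -0.21 in het.

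**Figure D2:**
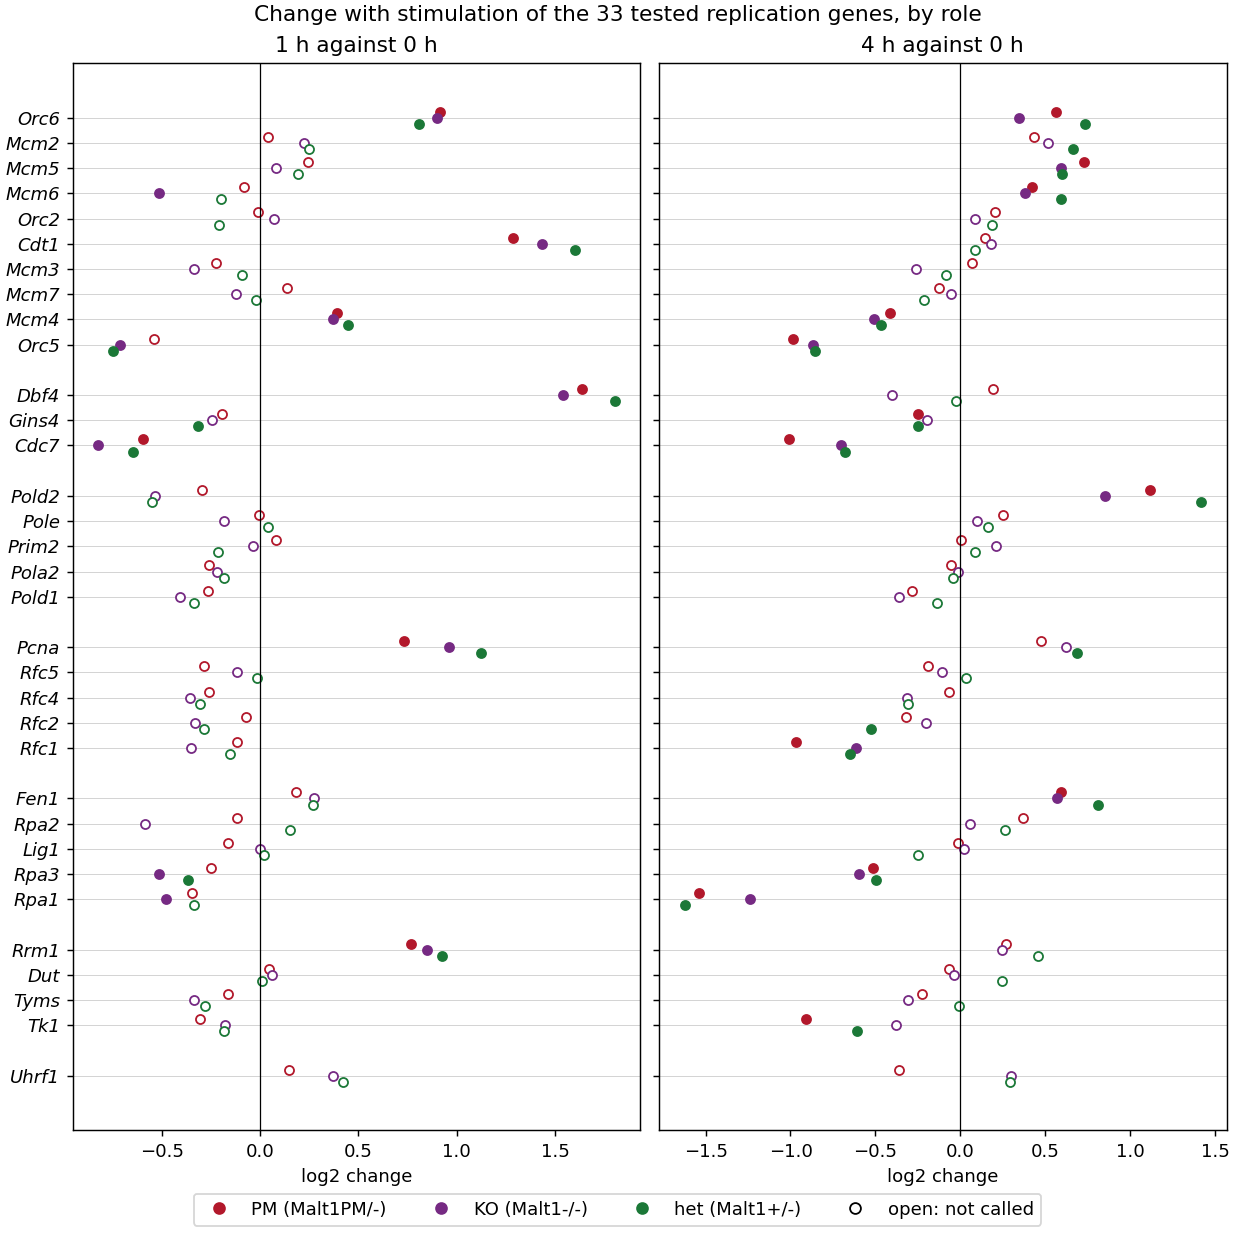
Log2 change of each of the 33 tested replication genes at 1 h (left) and at 4 h (right) against 0 h, grouped by role, in PM (red), KO (purple) and het (green) cells; filled points were called and open points were not. At 1 h the called rises are Orc6, Cdt1, Mcm4, Dbf4, Pcna and Rrm1, and at 4 h the widest changes are the rise of Pold2 and the fall of Rpa1.

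At 4 h some members rose and others fell, in shares near or below those of all genes. In PM cells 5 of 33 members were higher and 8 lower than at 0 h, where 24% of all genes were higher and 27.1% lower. In KO cells 5 were higher and 6 lower, against 22.2% and 24% of all genes. In het cells 7 were higher and 9 lower, against 26.9% and 28.3% of all genes. The median change of the members was -0.05 in PM, -0.04 in KO and -0.01 in het, beside -0.0222, -0.00834 and -0.00253 over all genes. Orc6, Mcm5, Mcm6, Pold2 and Fen1 rose in all 3 genotypes, and Orc5, Mcm4, Cdc7, Rfc1, Rpa1 and Rpa3 fell in all 3. The mean log2 signal over the 33 genes was 7.03 ± 0.06 in PM, 7.04 ± 0.07 in KO and 7.05 ± 0.08 in het cells at 4 h (SD, n = 4), and 7.10 ± 0.10, 7.10 ± 0.04 and 7.05 ± 0.05 at 0 h. Under median scaling, Pold2, Orc5 and Rpa1 were the members still called at 4 h in every genotype.

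Markers of other cells moved at the same time. The summed linear signal of 7 B cell markers was 288.4 to 981.4 in PM, 225 to 983.9 in KO and 228.9 to 636.3 in het cells at 4 h, against 760.3 to 2573, 708.7 to 1851 and 880.6 to 2408 at 0 h, and 4 of the 7 were called lower in each genotype. The 8 myeloid markers summed to 674.5 to 1383 in PM, 762.9 to 1627 in KO and 717.7 to 1449 in het at 4 h, against 2298 to 4416, 3828 to 5587 and 4189 to 4786 at 0 h, with 6, 7 and 6 of 8 called lower. In KO, the B cell marker Fcer2a and the myeloid marker Cd14 went the other way without a call (0.68 and 0.31). The defining genes Pax5, Ebf1 and Cr2 of B cells and Itgam and Itgax of myeloid cells were below the detection filter. Of 8 T cell markers 5 were called lower in PM, 4 in KO and 5 in het, and 1, 2 and 0 were called higher. Over all genes 27.1%, 24% and 28.3% were called lower and 24%, 22.2% and 26.9% higher at 4 h in PM, KO and het. The part of these markers in the changes of the replication genes was not tested.

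Pold2, the accessory subunit of polymerase delta, rose most at 4 h. In PM cells Pold2 read 8.03, 7.84, 8.32 and 8.34 at 0 h, 7.62, 7.81, 7.82 and 8.10 at 1 h, and 9.35, 8.77, 9.35 and 9.52 at 4 h. In KO cells Pold2 read 8.15, 7.62, 8.33 and 8.30 at 0 h, 7.18, 7.72, 7.80 and 7.58 at 1 h, and 8.65, 8.66, 9.34 and 9.16 at 4 h. In het cells Pold2 read 8.19, 7.90, 7.96 and 8.46 at 0 h, 7.02, 7.79, 7.61 and 7.91 at 1 h, and 9.57, 9.02, 9.64 and 9.94 at 4 h. All 4 h arrays were above all arrays of the other times in each genotype. The rise against 0 h was 2.16-fold in PM, 1.8-fold in KO and 2.67-fold in het (log2 1.11 in PM, 0.85 in KO and 1.42 in het cells, SE 0.21, limma adjusted p = 5.62e-05, 0.00149 and 1.21e-06). The catalytic subunit Pold1 had log2 differences of -0.28 in PM, -0.36 in KO and -0.14 in het cells, and none was called.

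Mcm5, a helicase subunit, rose at 4 h and was not called at 1 h. In PM cells Mcm5 read 7.70, 8.16, 7.83 and 8.34 at 0 h, 8.24, 8.42, 8.16 and 8.19 at 1 h, and 8.79, 8.84, 8.69 and 8.64 at 4 h. In KO cells Mcm5 read 7.93, 8.35, 7.92 and 7.93 at 0 h, 8.19, 8.33, 7.98 and 7.95 at 1 h, and 8.73, 8.78, 8.49 and 8.49 at 4 h. In het cells Mcm5 read 8.18, 8.03, 8.03 and 8.14 at 0 h, 8.38, 8.32, 8.21 and 8.25 at 1 h, and 8.86, 8.82, 8.68 and 8.41 at 4 h. Its 4 h arrays lay above the 0 h and 1 h arrays in every genotype. The change at 4 h was 0.73 in PM, 0.59 in KO and 0.60 in het cells (log2, SE 0.13, limma adjusted p = 1.92e-05, 0.000364 and 0.000232). Under median scaling the rise was 0.64, 0.47 and 0.54 in PM, KO and het, and none was called.

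Fen1, the nuclease that trims Okazaki fragments, had in PM cells 8.66, 8.46, 8.53 and 8.65 at 4 h, against 7.83, 7.72, 8.21 and 8.15 at 0 h. For KO cells the Fen1 values were 8.70, 8.07, 8.44 and 8.68 at 4 h, against 8.12, 7.88, 7.79 and 7.81 at 0 h. For het cells they were 8.77, 8.33, 8.66 and 8.80 at 4 h, against 7.82, 7.91, 7.77 and 7.82 at 0 h. The times overlapped in KO only, through 1 array at 8.07. Fen1 rose by 0.59 in PM, 0.57 in KO and 0.81 in het cells (log2, SE 0.15, limma adjusted p = 0.000927, 0.00165 and 1.69e-05), and none of these was called under median scaling. Lig1, the ligase that acts after it, stood at -0.02 in PM, 0.02 in KO and -0.25 in het cells, with no call.

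Mcm6 and Mcm2 encode partners of MCM5 in the helicase. Mcm6 ranged over 7.76 to 8.43 in PM, 7.94 to 8.34 in KO and 7.84 to 8.32 in het at 4 h, against 7.53 to 7.81, 7.55 to 7.96 and 7.31 to 7.75 at 0 h. It rose by 0.42 in PM, 0.38 in KO and 0.59 in het cells (log2, SE 0.15, limma adjusted p = 0.02, 0.038 and 0.00123). The PM call was lost without replicate 3 at 0 h or at 4 h (adjusted p = 0.0669 and 0.0993), and the KO call without any 1 of 5 arrays, replicates 1 to 3 at 0 h and replicates 1 and 3 at 4 h (adjusted p of 0.0595 to 0.133). Its 3 probes did not agree on the call in any genotype. In PM the probe used was called, and the others had changes of 0.23 and 0.40 without a call. In KO the changes were 0.38, 0.82 and 0.39, of which the first 2 were called. In het they were 0.59, 0.60 and 0.43, and again the first 2 were called.

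Mcm2 ranged over 8.12 to 9.07 in PM, 8.30 to 8.89 in KO and 7.98 to 9.10 in het at 4 h, against 7.84 to 8.51, 7.42 to 8.42 and 7.38 to 8.33 at 0 h, so that the times overlapped everywhere. The Mcm2 change was 0.43 in PM, 0.52 in KO and 0.66 in het cells (log2, SE 0.25, limma adjusted p = 0.153, 0.0922 and 0.0251). The het call was lost without replicate 1 or 2 at 0 h or replicate 3 or 4 at 4 h (adjusted p of 0.0612 to 0.133). Pcna at 4 h was called in het alone, at 0.68 (adjusted p = 0.0303), with 0.48 in PM and 0.62 in KO, and the het call was lost in 5 of 8 fits without 1 array, namely replicate 1 or 4 at 0 h and replicate 2, 3 or 4 at 4 h (adjusted p of 0.0669 to 0.0988). Differences between genotypes in these changes are given further on, and none was called. Rrm1 in het stood 0.46 above 0 h at 4 h (adjusted p = 0.084), and with the replicate block its adjusted p was 0.018.

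**Figure D3:**
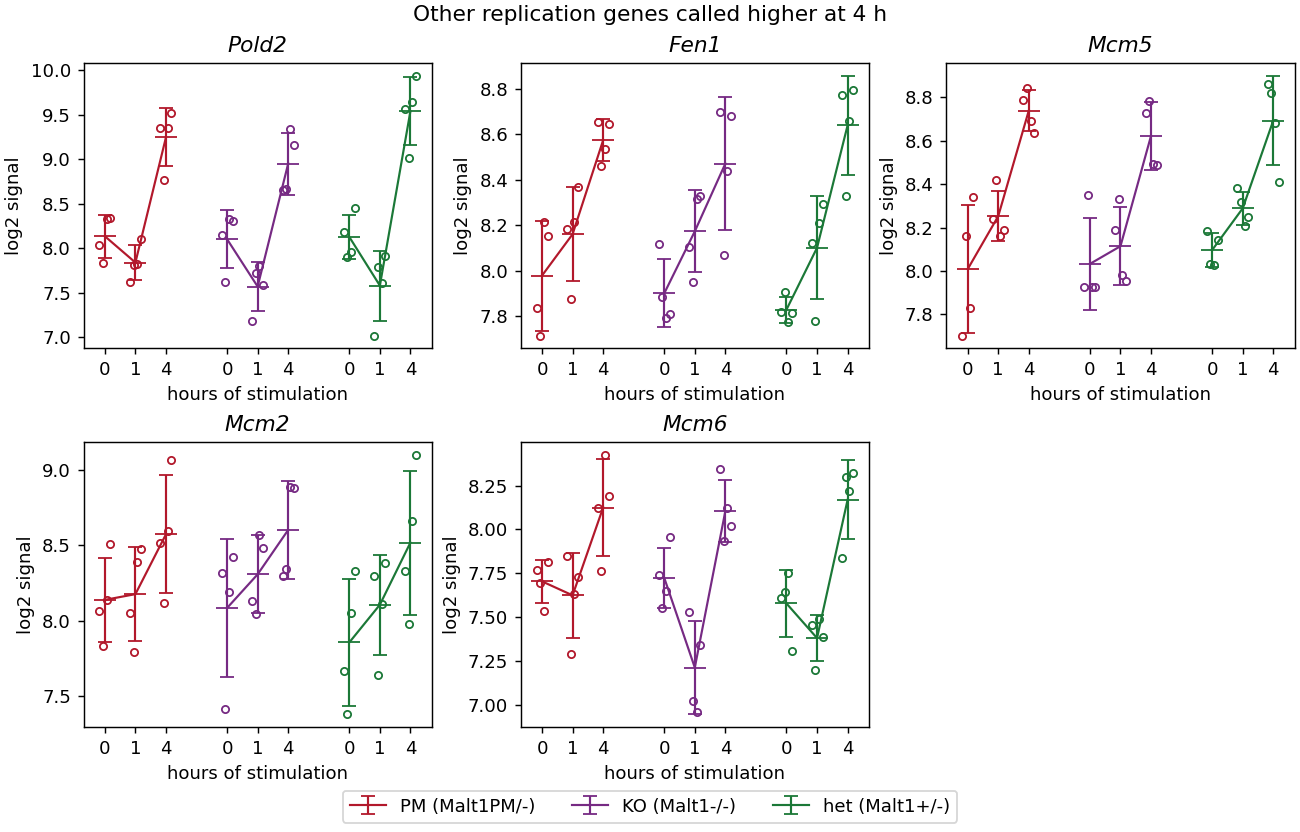
Log2 signal of Pold2, Fen1, Mcm5, Mcm2 and Mcm6 at 0, 1 and 4 h in PM, KO and het cells; circles are single arrays, ticks with bars the mean and SD of 4 arrays. The 4 h arrays of Pold2 and Mcm5 lie above all earlier arrays of their genotype, and those of Mcm2 overlap them.

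Rpa1, the large subunit of the single-strand binding protein RPA, fell most at 4 h. In PM cells Rpa1 read 11.49, 11.47, 11.24 and 11.09 at 0 h, 11.03, 11.17, 10.78 and 10.92 at 1 h, and 9.83, 9.87, 9.73 and 9.69 at 4 h. In KO cells Rpa1 read 11.66, 11.46, 11.36 and 11.17 at 0 h, 11.06, 11.14, 10.81 and 10.71 at 1 h, and 10.47, 10.38, 10.23 and 9.60 at 4 h. In het cells Rpa1 read 11.38, 11.56, 11.50 and 11.24 at 0 h, 11.09, 11.25, 10.999 and 10.999 at 1 h, and 9.83, 10.05, 9.77 and 9.55 at 4 h. All 4 h arrays were below all 0 h and 1 h arrays of their genotype. The fall at 4 h was 2.91-fold in PM, 2.36-fold in KO and 3.08-fold in het (log2 -1.54 in PM, -1.24 in KO and -1.62 in het cells, SE 0.15, limma adjusted p = 3.41e-10, 3.66e-08 and 7.69e-11). Rpa3, the smallest subunit, also fell, with changes of -0.51 in PM, -0.59 in KO and -0.50 in het cells (adjusted p = 0.000586, 0.000119 and 0.000694). Its 4 h range was 7.86 to 8.07 in PM, 7.85 to 8.16 in KO and 7.94 to 8.14 in het, below 8.37 to 8.66, 8.17 to 8.73 and 8.41 to 8.79 at 0 h. Rpa2, the middle subunit, had 0.37 in PM, 0.06 in KO and 0.26 in het cells with no call, and replicate 4 was the lowest array in 8 of the 9 groups.

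Cdc7 fell while its activator Dbf4 was back near the resting level. Its values come from 1 probe, and its other probe was detected on 0 of 36 arrays. In PM cells Cdc7 read 8.29, 8.56, 8.55 and 8.85 at 0 h, 7.83, 8.12, 7.70 and 8.21 at 1 h, and 7.48, 7.65, 7.52 and 7.57 at 4 h. In KO cells Cdc7 read 8.43, 8.76, 8.69 and 8.62 at 0 h, 7.98, 7.86, 7.56 and 7.82 at 1 h, and 7.69, 8.08, 8.11 and 7.81 at 4 h. In het cells Cdc7 read 7.94, 8.55, 8.52 and 8.54 at 0 h, 7.64, 7.85, 7.60 and 7.88 at 1 h, and 7.65, 7.64, 7.60 and 7.95 at 4 h. The 4 h arrays were below the 0 h arrays in PM and KO, and 1 resting het array at 7.94 overlapped the 4 h arrays of het. The change at 4 h was -1.01 in PM, -0.70 in KO and -0.68 in het cells (log2, SE 0.14, limma adjusted p = 5.78e-07, 0.000152 and 0.000161). At 1 h it had been -0.60 in PM, -0.82 in KO and -0.65 in het cells (adjusted p = 0.0025, 5.26e-05 and 0.000896).

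Orc5, another subunit of the origin recognition complex, had in PM cells 7.86, 7.01, 7.54 and 7.94 at 4 h, against 8.70, 8.23, 8.70 and 8.67 at 0 h. For KO cells the Orc5 values were 7.52, 7.68, 7.98 and 7.92 at 4 h, against 8.63, 8.66, 8.42 and 8.87 at 0 h. For het cells they were 7.76, 7.09, 7.71 and 8.12 at 4 h, against 8.30, 8.63, 8.50 and 8.68 at 0 h. No genotype had an overlap of the times, and all 4 h arrays were lower. Orc5 fell by 1.98-fold in PM, 1.83-fold in KO and 1.81-fold in het (log2 -0.99 in PM, -0.87 in KO and -0.86 in het cells, SE 0.22, limma adjusted p = 0.000276, 0.00129 and 0.00107). Its second probe gave -1.06 in PM and -0.94 in KO.

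Rfc1, the large subunit of the clamp loader, had in PM cells 7.86, 7.07, 7.40 and 7.22 at 4 h, against 8.58, 7.98, 8.61 and 8.26 at 0 h. For KO cells the Rfc1 values were 7.66, 7.58, 7.98 and 7.53 at 4 h, against 8.55, 7.97, 8.44 and 8.23 at 0 h. For het cells they were 7.91, 7.27, 7.77 and 7.84 at 4 h, against 8.06, 8.13, 8.52 and 8.69 at 0 h. The times overlapped in KO, where 1 array at 4 h reached 7.98 and 1 at 0 h stood at 7.97, and not in the other genotypes. Rfc1 fell, with changes of -0.97 in PM, -0.61 in KO and -0.65 in het cells (log2, SE 0.19, limma adjusted p = 7.07e-05, 0.00876 and 0.00422). Of the smaller loader subunits, Rfc2 fell in het, with a change of -0.53 (adjusted p = 0.00399), while Rfc4 and Rfc5 were not called in any genotype.

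Tk1, the cytosolic thymidine kinase of cycling cells, was near background throughout. In PM cells Tk1 read 4.39, 4.29, 4.23 and 4.16 at 4 h, against 4.95, 4.69, 5.21 and 5.85 at 0 h. In KO cells Tk1 read 4.34, 4.28, 4.27 and 4.51 at 4 h, against 4.52, 4.47, 4.69 and 5.23 at 0 h. In het cells Tk1 read 4.19, 4.24, 4.26 and 4.35 at 4 h, against 4.54, 4.76, 5.03 and 5.16 at 0 h. Its probe was detected on 4 of 4, 1 of 4 and 3 of 4 arrays of PM, KO and het at 0 h and on 0 of 4 in each at 4 h. Tk1 was lower at 4 h in PM (limma adjusted p = 0.000245) and het (adjusted p = 0.00906), and the adjusted p in KO was 0.118. Because the 4 h level has only an upper bound, the PM fall is given as at least 1.23-fold, the 0 h mean over the mean of the lowest signal above background on each 4 h array (or the probe's own signal where higher), and the same bound gives no fold in KO and het.

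**Figure D4:**
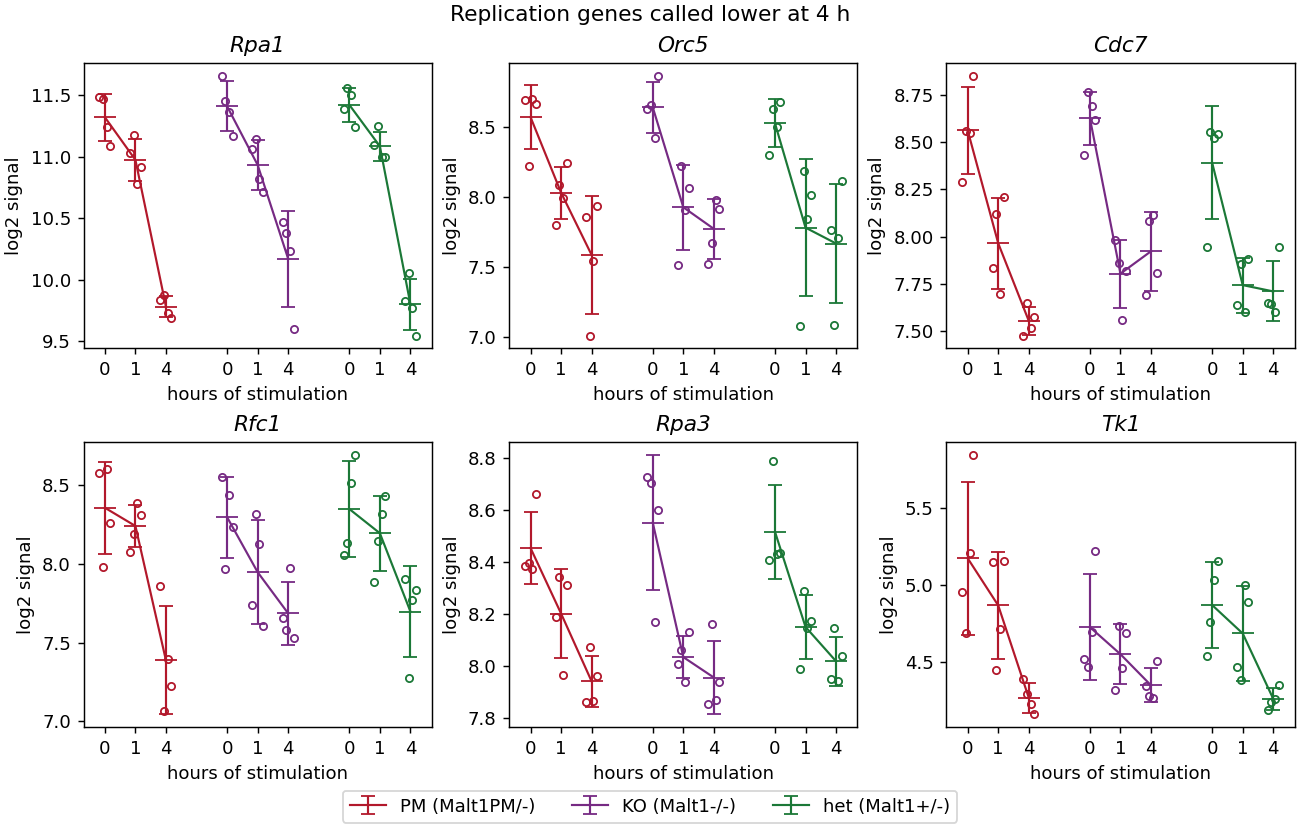
Log2 signal of Rpa1, Orc5, Cdc7, Rfc1, Rpa3 and Tk1 at 0, 1 and 4 h in PM, KO and het cells; circles are single arrays, ticks with bars the mean and SD of 4 arrays. Cdc7 was lower already at 1 h, Rpa1 at 4 h lies below all earlier arrays of its genotype, and Tk1 at 4 h was not above background on any array.

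The remaining members gave few calls. Gins4, a subunit of the GINS complex, was -0.25 in PM and -0.25 in het at 4 h (adjusted p = 0.0349 and 0.0308), and each call was lost in 5 of 8 fits without 1 array, with adjusted p-values of 0.0595 to 0.111 in PM (replicates 1, 3 and 4 at 0 h, replicates 2 and 3 at 4 h) and 0.0669 to 0.105 in het (replicates 1, 2 and 4 at 0 h, replicates 2 and 3 at 4 h). Orc2, Mcm3, Mcm7, Pola2, Prim2, Pold1, Pole, Rfc4, Rfc5, Rpa2, Lig1, Tyms, Dut and Uhrf1 were not called against 0 h at either time in any genotype. Orc2 was detected on no more than 2, Mcm7 on no more than 2 and Pole on no more than 1 of the 4 arrays of any group. Mcm3 read 6.60, 6.36, 6.54 and 4.39 in PM at 4 h, and replicate 4 was the lowest array of Mcm3 in 8 of the 9 groups. Tyms, thymidylate synthase, had -0.23 in PM, -0.31 in KO and -0.01 in het cells, and Uhrf1, which brings DNA methylation to new strands, had -0.36 in PM, 0.30 in KO and 0.29 in het cells.

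Prim1 and Pole2 (polymerase subunits), Rrm2, and Slbp (the histone mRNA binding protein) were detected on 0 of 36 arrays, Mcm10 on 2 and Cdc6, which loads the helicase, on 3 with its best probe. The 3 detections of Cdc6 were all at 1 h, 2 in PM and 1 in het, and those of Mcm10 were at 0 h in PM. These 6 genes are not counted among the tested members, and no statement on a change is made for them.

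From 1 to 4 h some members rose and others fell back. In PM cells 4 of 33 members were higher and 8 lower at 4 h than at 1 h, where 23.6% of all genes were higher and 24.2% lower. In KO cells 3 were higher and 6 lower, against 22.4% and 22.1% of all genes. In het cells 4 were higher and 5 lower, against 25.7% and 27% of all genes. Mcm5, Mcm6 and Pold2 rose in all 3 genotypes, and Cdt1, Mcm4, Dbf4 and Rpa1 fell in all 3. Mcm6 rose by 0.50 in PM, 0.89 in KO and 0.79 in het cells and Pold2 by 1.41 in PM, 1.38 in KO and 1.96 in het cells. The other probes of Mcm6 gave 0.48 and 0.59 in PM, 0.95 and 0.97 in KO, and 0.42 and 0.50 in het. Both were called in KO, the first in PM and neither in het. Under median scaling Mcm5 and Mcm4 were called in no genotype in this step (adjusted p of 0.187 to 0.4 and 0.0609 to 0.288), Mcm6 in KO but not in PM or het (0.139 and 0.0671), and Rpa1 in het but not in PM or KO (0.106 and 0.368). Calls that 1 array decided in this step were Cdc7, Fen1, Orc6 and Tk1 in PM, Rrm1 in KO and Rfc1 in het. Without replicate 2 at 1 h in PM the adjusted p was 0.0619 for Cdc7 and 0.0913 for Fen1, and Cdc7 was also lost without replicate 4 at 1 h (0.0829). Tk1 was lost without replicate 1 or 4 at 1 h (0.0504 and 0.0516), and Orc6 without replicate 1, 3 or 4 at 1 h or replicate 1 at 4 h (0.0546 to 0.083). Rrm1 in KO was lost without replicate 1 or 4 at 1 h or replicate 2 at 4 h (0.0828 to 0.124), and Rfc1 in het without replicate 3 or 4 at 1 h or replicate 2 at 4 h (0.0706 to 0.136). With the replicate block, where the numbers pair the arrays in PM and KO, Mcm2 was also called higher in PM (0.40, adjusted p = 0.00686) and KO (0.29, adjusted p = 0.0447), Rrm1, Uhrf1, Orc5 and Rpa3 lower in PM (adjusted p of 0.012 to 0.0493), and Rpa2 and Fen1 higher in KO (adjusted p = 0.0169 and 0.0287). In either direction the block called 17 members in PM and 12 in KO in this step, beside 55.8% and 52.7% of all genes.

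Between genotypes, no member was called at any time. At 0 h 0 of 33 were called for PM against het, KO against het and PM against KO, where 0.0791%, 0.0527% and 0.0659% of all genes were called. At 1 h the counts were again 0, against 0.211%, 0.0527% and 0.0132% of all genes. At 4 h they were 0, against 2.83%, 8.74% and 2.81% of all genes. The response at 4 h did not differ by a call either, with 0 of 33 for PM against het, KO against het and PM against KO, where 0.132%, 1.99% and 0.369% of all genes were called. At an unadjusted p under 0.05, limma gave 1 member for PM against het and 2 for PM against KO at 0 h, 1 for PM against KO at 1 h, and 5 for KO against het and 2 for PM against KO at 4 h. The shares of all genes at that p were 3.57% and 3.27% for these comparisons at 0 h, 4.38% at 1 h, and 20.8% and 10.8% at 4 h, so that at 4 h the members (5 and 2 of 33) lay below them. For the differences of the 4 h responses it gave 0, 1 and 1, where 5.6%, 11.1% and 5.31% of all genes reached it. A comparison without a call does not show that the genotypes are alike, and the 95% intervals at 4 h reached for Pold2 from -0.73 to 0.14 in PM against het, and for Mcm5 from -0.22 to 0.31.

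The 5 members with an unadjusted p under 0.05 for KO against het at 4 h were Pold2, Orc6, Rfc2, Rpa1 and Cdt1, a smaller share than the 20.8% of all genes. Pold2 read 8.65, 8.66, 9.34 and 9.16 in KO and 9.57, 9.02, 9.64 and 9.94 in het at 4 h, so the KO arrays were mostly lower and overlapped the het arrays. The difference was -0.59 (log2, 95% interval -1.03 to -0.15, limma adjusted p = 0.0878). Rpa1 read 10.47, 10.38, 10.23 and 9.60 in KO and 9.83, 10.05, 9.77 and 9.55 in het, a difference of 0.37 (adjusted p = 0.14) in which 3 KO arrays were above all het arrays and 1 was not. For Cdt1, Rfc2 and Orc6 the groups did not overlap, with differences of 0.30, 0.39 and -0.35 (adjusted p = 0.142, 0.12 and 0.0959).

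With the replicate number as a block, which pairs the arrays in KO against het at 4 h (correlations of same-numbered arrays 0.163, 0.587, 0.108 and 0.576), 4 of the 33 were called, where the block called 15.2% of all genes. They were Pold2 (adjusted p = 0.012), Rpa1 (0.0138), Rfc2 (0.0219) and Cdt1 (0.0497), at the same differences. Without the block, Pold2 was called when replicate 3 of KO or replicate 2 of het at 4 h was left out (-0.72 and -0.76, adjusted p = 0.0481 and 0.0239), and Rpa1 when replicate 4 of KO was left out (0.56, adjusted p = 0.00859). Leaving out that array also gave a call for Rpa1 in PM against KO (-0.58, adjusted p = 0.0187), where the difference over all arrays was -0.39 (adjusted p = 0.229). The summed signal of the 8 T cell markers was 19580 to 22620 in KO and 13450 to 15340 in het at 4 h. Of the 8, 5 were called higher and 1 lower in KO, where 8.74% of all genes were called in either direction. The part of these markers in the differences between genotypes was not tested.

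**Figure D5:**
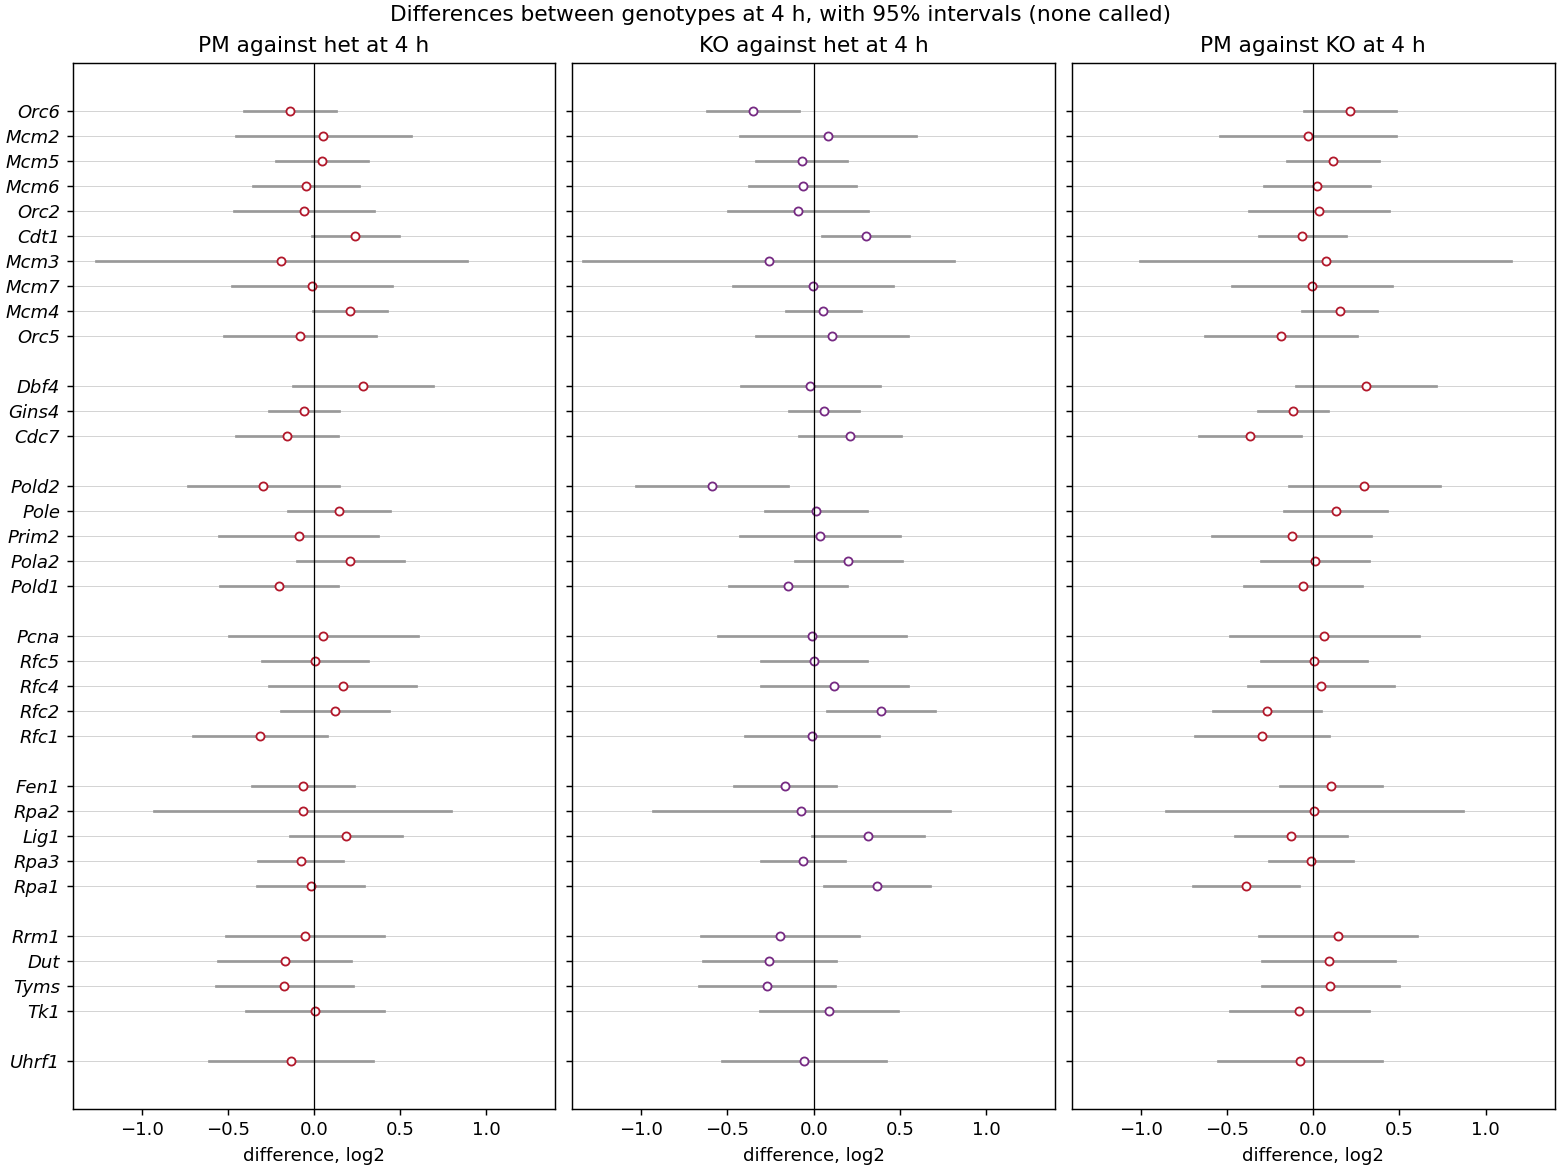
Differences between genotypes at 4 h for the 33 tested replication genes (log2), PM against het, KO against het and PM against KO, with 95% intervals as bars. All points are open because none was called, and the intervals that leave out 0 for KO against het are those of Orc6, Cdt1, Pold2, Rfc2 and Rpa1.

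Of 14 tested genes of purine and pyrimidine synthesis, 8 rose in PM, 7 in KO and 9 in het cells at 4 h, and 1 fell in each. These are 57.1%, 50% and 64.3% higher and 7.14% lower, against 24%, 22.2% and 26.9% higher and 27.1%, 24% and 28.3% lower over all genes. Ctps, which makes CTP, rose by 2.04 in PM, 1.96 in KO and 2.73 in het (log2), Cad, which starts pyrimidine synthesis, by 2.13, 1.79 and 2.18, and Uck2, a uridine and cytidine kinase, by 1.88, 1.83 and 2.11, while Prps2 fell. The median change of the 14 was 1.28 in PM, 1.02 in KO and 1.26 in het, beside medians near 0 over all genes. At 1 h 2, 1 and 3 of these 14 genes rose and 1 fell in PM, KO and het. Over all genes 10.3%, 12.4% and 12.7% rose and 13.1%, 15.7% and 15.5% fell at 1 h. Ctps was lower in KO and in PM than in het at 4 h (-0.80 and -0.46, limma adjusted p = 2.32e-05 and 0.0254).

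Of 16 other genes that make, trim or salvage deoxynucleotides, 10 rose and 5 fell in PM, 8 rose and 3 fell in KO, and 9 rose and 5 fell in het cells at 4 h (62.5%, 50% and 56.2% higher, 31.2%, 18.8% and 31.2% lower, read against the same shares of all genes). The serine hydroxymethyltransferases that feed thymidylate synthesis rose, Shmt2 by 2.03 in PM, 1.93 in KO and 2.58 in het, and Shmt1 by 2.57 in PM and 3.02 in het and at least 3.64-fold in KO, where it was not above background at 0 h. Dctpp1, which hydrolyses dCTP, rose by 2.19, 1.93 and 2.56. The mitochondrial salvage kinases fell, with changes in PM, KO and het of -2.26, -1.91 and -2.39 for Dguok and -0.96, -0.91 and -1.26 for Tk2. Rrm2b, the reductase subunit of cells outside S phase, fell too, with -1.04, -0.99 and -1.33. For Shmt2 and Dctpp1 the level at 4 h was lower in KO than in het (-0.52 and -0.57, adjusted p = 0.0184 and 0.0488). Samhd1, which degrades deoxynucleotides, was higher in PM than in het at 4 h (1.19, adjusted p = 0.00496).

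Of 23 tested genes of origins and forks outside the set, 4 rose and 5 fell in PM, 3 and 3 in KO, and 4 and 3 in het at 4 h. These shares (17.4%, 13% and 17.4% higher, 21.7%, 13% and 13% lower) lie below those of all genes. Pole3, a histone-fold subunit of polymerase epsilon, rose by 1.62 in PM, 1.43 in KO and 1.90 in het, and Nasp, a histone chaperone, by 1.26, 0.92 and 1.33. Nasp was the gene of this list that rose at 1 h in all 3 genotypes (1.42, 1.21 and 1.49). Dnmt1, the maintenance DNA methyltransferase, fell, with changes of -0.64, -0.53 and -0.74. Pold4, the small subunit of polymerase delta, fell in PM (-1.43) and het (-1.73) and stood at -0.46 in KO (adjusted p = 0.0622), and at 4 h it was higher in KO than in het (1.02, adjusted p = 0.000981). Pole3 was lower in KO than in het at 4 h (-0.59, adjusted p = 0.031).

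Among 21 regulators of the passage from G1 to S phase, 8 rose and 5 fell in PM, 8 and 7 in KO, and 9 and 7 in het at 4 h (38.1%, 38.1% and 42.9% higher, 23.8%, 33.3% and 33.3% lower). Over all genes the shares were 24%, 22.2% and 26.9% higher and 27.1%, 24% and 28.3% lower. Myc rose by 3.05 in PM, 1.91 in KO and 3.30 in het, and the inhibitor gene Cdkn1a by at least 11-fold, 7.53-fold and 13.99-fold, relative to a resting level that was not above background. E2f1, an activator of replication genes, rose at 1 h by 0.69, 1.00 and 1.01 in PM, KO and het, and E2f2 fell at 4 h by at least 6.92-fold, 5.19-fold and 6.74-fold. Ccnd3, a D-type cyclin, fell, with changes of -2.34, -1.64 and -2.34, and at 4 h it was higher in KO than in het and lower in PM than in KO (0.72 and -0.73, adjusted p = 0.00213 and 0.00533). Of 22 genes of G2 and mitosis, 19 had a probe and 8 were tested, and Cdk1, Ccna2, Ccnb2 and Bub1 were among the 11 below the detection filter. Cenpa, the centromeric histone H3 variant, rose at 1 h by 1.25, 1.30 and 1.12 and was lower at 4 h than at 0 h, with changes of -0.72, -0.44 and -1.12. Other genes of this list did not all follow it. Aurka rose at 1 h in PM and KO (0.69 and 0.88), while Plk1, Birc5 and Kif22 were not called there. Cdc20 was called higher in KO at 1 h (0.56, limma adjusted p = 0.00896) and at 4 h (0.46, adjusted p = 0.0195). In PM at 1 h it stood at 0.15 with no call.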

How the data were processed

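RNA of 36 T cell samples was measured on Illumina bead arrays. The authors deposited a table of probe intensity with a detection p-value per array, not normalized, per the file headers, and GenomeStudio 2011.1 is named in the submitters' processing notes. Their own processed table was used only as an alternative. From the deposited intensity and detection p-value columns, limma 3.58.1 (R 4.3.3, statmod 1.5.0) corrected background and quantile-normalized the arrays (neqc, offset 16). Probes with a detection p under 0.01 on at least 4 arrays were kept, and the brightest probe stood for each gene, which left 7585 genes. One limma model with a mean for each of the 9 groups was fitted to all 36 arrays, and p-values were adjusted over all genes (Benjamini-Hochberg, threshold 0.05). The model was also run on simulated data with independent noise on each array. Those data leave out the correlation of same-numbered arrays, so the run does not cover it. Alternatives covered scaling, background, filter, array weights, the replicate number as a block, and each array left out.

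The members, gene lists and comparisons were chosen with earlier results of these data known. The members named for 4 h are the 12 with the largest mean change over the genotypes, in either direction, among those called. Most of them are given with array values at 4 h, Mcm2 and Rpa3 with ranges, and Pcna with its changes. Dbf4, Cdt1, Mcm4 and Rrm1, outside these 12, are given with array values for their rise at 1 h. Others are described by role and counts. Where others are singled out, they were chosen after their values were seen. Replicate numbers were taken to pair arrays where every same-numbered pair of deviations from the group means correlated above 0.1, which held in 12 of 18 comparisons. Arrays of 1 group correlated at 0.934 to 0.989. Promoter sequences are from RefSeq, assembly GRCm38.p6.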

Additional observations from a re-analysis of the deposited data

Results flagged for a closer look

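In 11 of 171 checks (19 replication genes in 9 groups of 4 arrays), 1 array stood apart from the other 3 by a gap above Dixon's critical share of the group's range, and chance flags about 1 in 20 such groups. Values are log2 signals. At 0 h, Rrm1 read 7.299 on replicate 4 of PM (others 6.266 to 6.37), Rpa3 8.661 on the same array (others 8.371 to 8.397), and Orc5 8.226 on replicate 2 of PM (others 8.666 to 8.701). In resting KO cells, Mcm4 read 10.56 on replicate 1 (others 10.35 to 10.38) and Mcm5 8.352 on replicate 2 (others 7.925 to 7.927). In resting het cells, Cdc7 read 7.943 on replicate 1 (others 8.522 to 8.554), Rpa3 8.786 on replicate 2 (others 8.408 to 8.435) and Gins4 8.87 on replicate 3 (others 9.063 to 9.076). Among stimulated het cells, Orc6 read 8.813 on replicate 3 at 1 h (others 8.566 to 8.593). At 4 h Pcna read 4.835 on replicate 1 of het (others 5.84 to 5.965) and Cdc7 7.946 on replicate 4 (others 7.602 to 7.649).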

How the results depend on the processing

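Of 1663 alternative fits of the 98 called changes, 1497 kept their direction and their call, 166 lost the call and 0 reversed. Scaling arrays to a common median moved most counts: at 1 h against 0 h it called 1 member in PM, 5 in KO and 2 in het, at 4 h against 0 h 6, 3 and 5, and at 4 h against 1 h 4, 4 and 4. Against quantile normalization it shifted the median change of all genes by -0.237, -0.253 and -0.106 at 1 h and by -0.0833, -0.111 and -0.118 at 4 h in PM, KO and het (against 0 h), by 0.111 in PM and 0.112 in KO at 4 h against 1 h, and by -0.125 for PM against het and -0.228 for KO against het at 1 h. The cause was not tested. Fitting only the arrays of the groups compared called 4 members in PM at 1 h, and array weights called 14 in het at 4 h against 1 h. For KO against het at 4 h, 1 member was called without background correction, 2 with array weights, 4 with the replicate block and 1 from replicates 1 to 3 only. For PM against KO at 4 h, the replicate block, where the numbers did not pair the arrays, and replicates 1 to 3 only each called 1. Leaving out 1 array at a time gave 6 to 7, 11 to 14 and 9 to 14 calls in PM (1 h against 0 h, 4 h against 0 h, 4 h against 1 h), 10 to 12, 9 to 11 and 8 to 10 in KO, and 8 to 11, 13 to 16 and 8 to 11 in het. It gave 0 to 1 for KO against het and for PM against KO at 4 h, and 0 to 0 in the other genotype comparisons. With the replicate block no call was lost. At 4 h against 0 h in PM and KO, where not every same-numbered pair correlated above 0.1, it called 15 members in each, Mcm2 among them (adjusted p = 0.00308 and 0.000667). Of all genes, the block called 58.5% in PM and 54.5% in KO in that step. Signals near background limit Pcna, Tk1, Orc2, Mcm7 and Pole, and the scale of the authors' own processed table is not known.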
